A study of Mus musculus with 24 samples.

Results

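Cyp2 genes encode the largest family of cytochrome P450 enzymes in mouse liver. The deposited liver RNA sequencing table listed 48 genes whose symbol was Cyp2, a subfamily letter and a number, of 15582 genes in all. A further 2 lines whose symbols end in -ps, Cyp2c53-ps and Cyp2d37-ps, were left out. Expression was given as RPKM, which is the read count scaled to the length of the gene model and to the library's mapped reads. Of the 48 genes, 32 reached 0.5 RPKM in at least 6 libraries and were tested. They comprised 4 of 4 Cyp2a genes, 2 of 5 Cyp2b, 13 of 15 Cyp2c, 6 of 9 Cyp2d and 3 of 7 Cyp2j genes, with Cyp2e1, Cyp2f2, Cyp2r1 and Cyp2u1.

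The libraries came from frozen liver of mixed lobes of male B6C3F1 mice, a cross of C57BL/6 and C3H, that were 4 weeks old. Their drinking water held 0, 1, 2 or 3.5 g/L of dichloroacetic acid (DCA) over 6 days, and 0 g/L is called control below. DCA forms when water is disinfected with chlorine, and it blocks the kinase that inhibits pyruvate dehydrogenase. The design asks how liver transcripts differ over these doses. Each dose had 6 libraries, and 24 were made in all with a stranded kit that removes ribosomal RNA. The labels do not state whether libraries and mice match one to one, so the p-values reflect how far these samples spread, which may be technical. Sample titles carry a tag of unstated meaning, which was L1 for all controls, L1 for 3 and L2 for 3 libraries at 1 g/L, L2 for all at 2 g/L and L3 for all at 3.5 g/L. At 3.5 g/L the tag and the dose cannot be told apart.

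Cytochrome P450 enzymes of the Cyp2 family sit in the endoplasmic reticulum, hold a haem group, and oxidise drugs, steroids, fatty acids and bile acids with electrons from P450 reductase and cytochrome b5. Many members lie in clusters of similar copies. In mouse liver some are higher in one sex, set by the growth hormone pattern, and others are raised by foreign chemicals through the nuclear receptors CAR (Nr1i3) and PXR (Nr1i2).

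Depth was 27000000 to 32100000 reads per library, estimated from the steps between low RPKM values. All 6 listed hepatocyte markers passed the filter, and albumin (Alb) had a control median of 21954 RPKM. The 3 Y-linked genes examined were above 0 in all 24 libraries. Library 99 at 3.5 g/L stood apart in 5 Cyp2 genes, with the highest Cyp2a4, Cyp2b9, Cyp2c40 and Cyp2c69 and the lowest Cyp2d9 of its dose. Log2 folds of these genes at 3.5 g/L are given with and without it. Log2 folds are differences of log2(RPKM + 1) from limma over all 6540 tested genes, with Benjamini-Hochberg adjusted p-values and a threshold of 0.05. They understate the change of genes at low RPKM, so ratios of mean RPKM are given beside the largest.

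Across the family, 7 of the 10 most abundant members in control fell at 2 g/L, while the largest rises were in genes under 1 RPKM in control, Cyp2a4 and Cyp2b9. At 2 g/L against control 24 of 32 tested members changed, of which 7 rose and 17 fell. The share of all tested genes that changed was 51.9%, with 41.9% that rose and 10.0% that fell. At 3.5 g/L against control 22 members changed, 7 up and 15 down, and the shares over all genes were 51.5% changed, 38.6% risen and 12.9% fallen. The members' median log2 fold was −0.32 at 2 g/L and −0.22 at 3.5 g/L, beside 0.12 and 0.10 over all genes. In bulk tissue, fewer cells of a type and less RNA per cell cannot be told apart.

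At 1 g/L against control limma called 0 of 32 members, while 11.4% of all genes changed, 8.35% up and 3.03% down. Unadjusted p was under 0.05 for 4 members, and the smallest adjusted p was 0.0887, for Cyp2d22. Another scaling of the libraries, by median ratio, called 1 member at this dose, Cyp2e1, and quantile normalization called 0. At this dose the member most apart from control was Cyp2d22, with all 6 libraries below all 6 control libraries.

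The direction of the whole transcriptome depends on how libraries are scaled, and this touches the small folds below. At 2 g/L against control 2738 genes rose and 657 fell as deposited. With median-ratio scaling 1392 rose and 1376 fell, and the all-gene median moved from 0.12 to −0.0014. Median-ratio scaling centres the folds of all genes by design, so these near-equal counts cannot decide the direction. With that scaling 4 members rose and 21 fell at 2 g/L, and 6 rose and 18 fell at 3.5 g/L. The calls that ended were the rises of Cyp2a5, Cyp2c44 and Cyp2r1 at 2 g/L and of Cyp2c44 at 3.5 g/L. A fit with the title tag as a term left out the 3.5 g/L libraries. Only the 1 g/L libraries held both tags, so the tag was estimated from those alone. The SE can widen in such a fit, so a call can end without a smaller fold. With the tag as a term 5 members were called at 2 g/L, 1 up and 4 down, and 864 genes in all. The 5 were Cyp2a22, Cyp2c29, Cyp2c37, Cyp2c55 and Cyp2c67, and the calls of the other 19 members at 2 g/L ended.

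**Figure D1:**
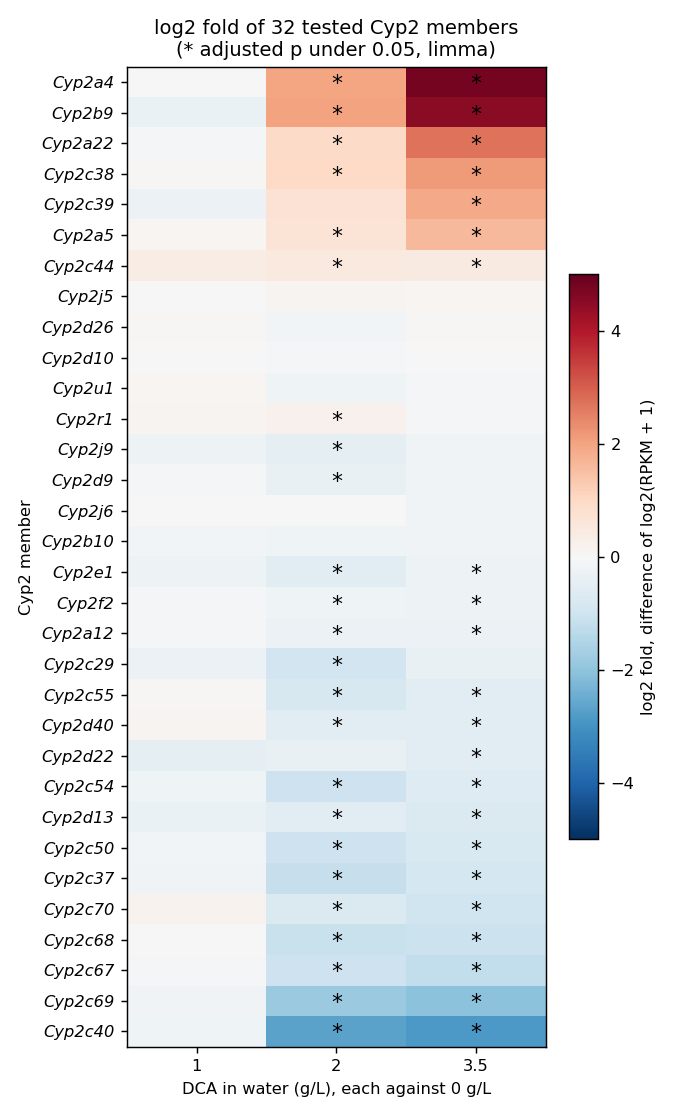
Log2 fold of each of the 32 tested Cyp2 members (rows, ordered by the fold at 3.5 g/L) at 1, 2 and 3.5 g/L DCA, each against 0 g/L, where red is higher and blue is lower than in control and an asterisk marks an adjusted p under 0.05. No member was called at 1 g/L, and the 7 that rose at 3.5 g/L stand at the top, while 15 fell.

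The strongest rises came from the Cyp2a and Cyp2b genes of chromosome 7. Cyp2a4, a steroid hydroxylase that is higher in female than in male mouse liver, and Cyp2b9, another female-biased steroid hydroxylase, were near 0.5 RPKM in control livers and had medians of 32 and 31.4 RPKM at 3.5 g/L. Cyp2a22 and Cyp2a5 rose beside them. Cyp2a12 and Cyp2f2 at the far end of the same cluster fell slightly, and Cyp2b10 did not pass the test at any dose.

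Several of these genes have a near-identical copy close by, so the letters that tell the copies apart decide how reads are shared. The first 120 coding bases of the following pairs are from GENCODE M21 transcripts on GRCm38, all on the plus strand of chromosome 7, with capitals at the bases that differ within the pair. Cyp2a4 lies at chr7:26307192-26315088 and Cyp2a5, a coumarin hydroxylase, at chr7:26835339-26843264. Cyp2b9 lies at chr7:26173350-26210661 and Cyp2b13, a female-biased copy, at chr7:26061388-26096197.
Cyp2a4 coding start: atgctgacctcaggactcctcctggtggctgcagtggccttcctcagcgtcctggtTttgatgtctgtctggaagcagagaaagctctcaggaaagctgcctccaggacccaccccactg
Cyp2a5 coding start: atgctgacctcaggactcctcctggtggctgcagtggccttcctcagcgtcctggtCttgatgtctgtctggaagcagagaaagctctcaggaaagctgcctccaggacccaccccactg
Cyp2b9 coding start: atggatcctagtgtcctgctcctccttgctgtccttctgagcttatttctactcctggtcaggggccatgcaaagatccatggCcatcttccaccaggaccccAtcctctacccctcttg
Cyp2b13 coding start: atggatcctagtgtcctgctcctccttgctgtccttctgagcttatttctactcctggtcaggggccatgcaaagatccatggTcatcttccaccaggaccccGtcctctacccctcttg
The first pair differed at 1 of these bases and the second at 2. Over whole transcripts, 38.0% of the 50-base windows of Cyp2a4 occurred in another Cyp2 transcript, against 10.8% of those of Cyp2b9. The share for Cyp2a5 was 40.8%.

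The sources used here do not give how the authors' counting divided reads that fit both copies. For Cyp2b9 all 15 low values came out as whole reads within a tolerance of 0.05 reads, from 7 to 292 reads. For Cyp2a4 and Cyp2a22 the low values were not whole multiples of 1 read, so whether their reads were split with copies cannot be told. The low values of Cyp2b13 were not all whole either, with 75.0% of 12 values within the tolerance. The division of reads within both pairs is therefore uncertain.

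Cyp2a4 had lowest, median and highest values of 0.277, 0.340 and 0.530 RPKM in control, 0.0782, 0.235 and 1.44 at 1 g/L, 1.81, 4.29 and 12.1 at 2 g/L and 22.9, 32 and 92.8 at 3.5 g/L. All libraries at 2 g/L lay above all controls, and all at 3.5 g/L above all at 2 g/L, while 1 g/L spread to both sides of control, with library 54 highest at 1.44 RPKM. The log2 fold was 1.98 (SE 0.32, adjusted p = 2.74e-05) at 2 g/L and 4.79 (SE 0.32, adjusted p = 4.32e-11) at 3.5 g/L, where mean RPKM was 115 times that of control. Without library 99 the log2 fold was 4.53 (SE 0.30, adjusted p = 7.28e-11) and the ratio of means 86.8. About 14 to 26 reads stood behind each control value, so the ratio carries counting error from those. Only 1 of 6 controls reached 0.5 RPKM, so Cyp2a4 passed the filter through its libraries at 2 and 3.5 g/L, and the difference is partly set by that filter.

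Cyp2b9 had lowest, median and highest values of 0.226, 0.676 and 1.32 RPKM in control, 0.125, 0.271 and 0.897 at 1 g/L, 1.45, 5.83 and 12.6 at 2 g/L and 15.8, 31.4 and 129.5 at 3.5 g/L. The order of the doses was as for Cyp2a4, with no overlap between 3.5 and 2 g/L or between 2 g/L and control. Against control the log2 fold was 2.01 (SE 0.38, adjusted p = 0.000135) at 2 g/L and 4.53 (SE 0.38, adjusted p = 1.22e-09) at 3.5 g/L, or 4.17 (SE 0.32, adjusted p = 9.62e-10) without library 99. Mean RPKM at 3.5 g/L was 67.8 times that of control, or 44.3 times without library 99. Since 4 of 6 controls and 1 library at 1 g/L reached 0.5 RPKM, Cyp2b9 too passed the filter through its libraries at 2 and 3.5 g/L. The copy Cyp2b13 never reached 0.5 RPKM, and its highest value, 0.330 RPKM, was in library 99.

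Doses of 2 and 1 g/L can be set against each other within 1 tag. The log2 fold within tag L2, over 6 and 3 libraries, was 1.74 (SE 0.46, adjusted p = 0.0429) for Cyp2a4 and 2.13 (SE 0.45, adjusted p = 0.0217) for Cyp2b9. With the tag as a term, 2 g/L against control gave 1.5 (SE 0.50, adjusted p = 0.0561) for Cyp2a4 and 1.61 (SE 0.53, adjusted p = 0.0503) for Cyp2b9, which ended both calls, and 1.02 (SE 0.29, adjusted p = 0.0274) for Cyp2a22, which kept its call.

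Cyp2a22, at chr7:26931631-26939413 on the minus strand, was as low in control and also rose. The lowest, median and highest values were 0.269, 0.556 and 0.690 RPKM in control, 0.291, 0.394 and 0.652 at 1 g/L, 0.860, 1.98 and 3.40 at 2 g/L and 4.66, 9.54 and 17.2 at 3.5 g/L. The values at 2 and 3.5 g/L overlapped neither each other nor control. Its log2 fold was 0.96 (SE 0.22, adjusted p = 0.000782) at 2 g/L and 2.71 (SE 0.22, adjusted p = 6.20e-10) at 3.5 g/L.

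Cyp2a5 was expressed in every library. Its lowest, median and highest values were 19.5, 26.3 and 31.1 RPKM in control, 23.9, 27.1 and 38.4 at 1 g/L, 27.1, 41.0 and 87.5 at 2 g/L and 46.3, 90.5 and 135 at 3.5 g/L. At 3.5 g/L all libraries lay above control, while at 2 g/L they overlapped it. This gave a log2 fold of 0.68 (SE 0.23, adjusted p = 0.0168) at 2 g/L, which was 0.48 (SE 0.21, adjusted p = 0.0585) without library 75, and 1.64 (SE 0.23, adjusted p = 3.31e-06) at 3.5 g/L. The ratio of Cyp2a4 to Cyp2a5 had medians of 0.0135, 0.00871, 0.0766 and 0.414 at 0, 1, 2 and 3.5 g/L, and 1 library at 3.5 g/L had more Cyp2a4 than Cyp2a5, at 1.13.

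**Figure D2:**
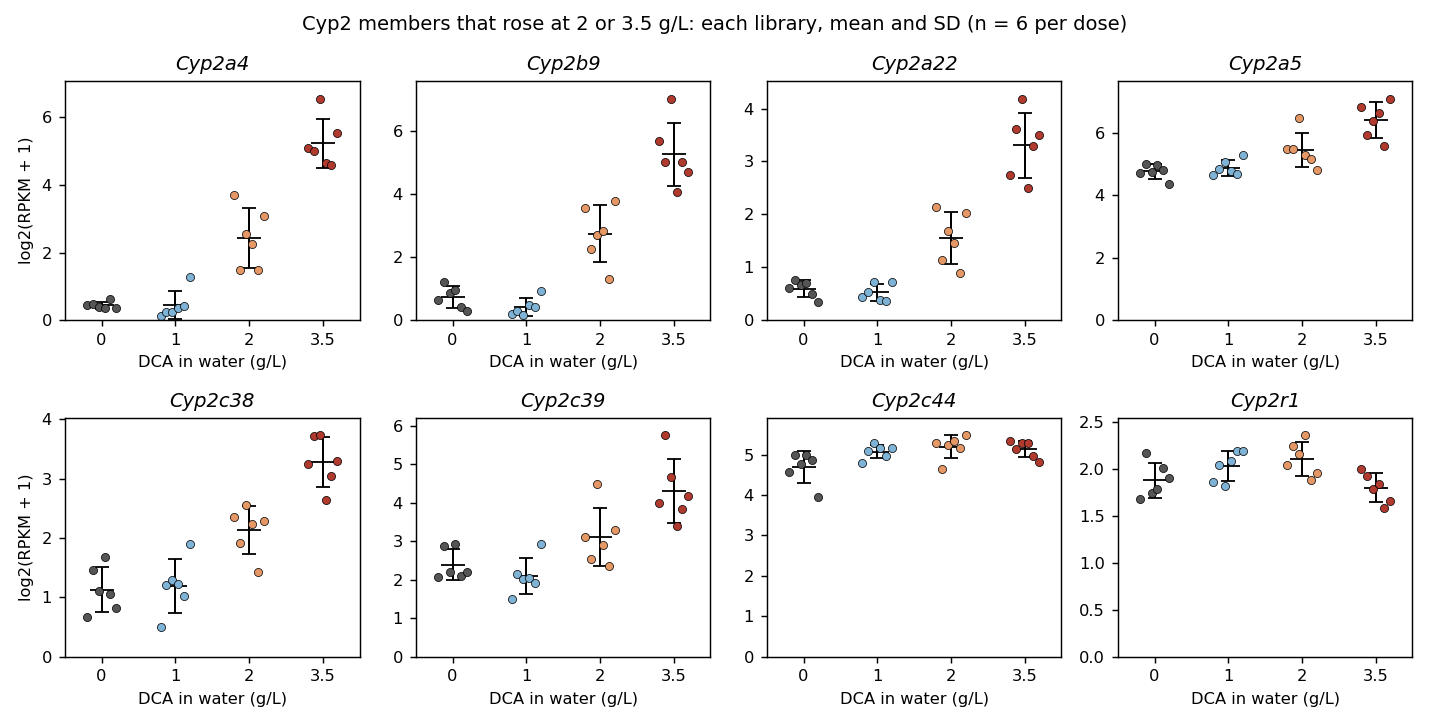
Expression as log2(RPKM + 1) against DCA dose for the 8 Cyp2 members that rose at 2 or 3.5 g/L, where points are libraries and bars are the mean and SD of 6. Cyp2a4, Cyp2b9 and Cyp2a22 lie near the floor at 0 and 1 g/L and climb at 2 and again at 3.5 g/L, while Cyp2c44 and Cyp2r1 move little.

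The copies share nearly all of their proximal promoter as well, and the promoters are printed since expression of Cyp2a4 and Cyp2a5, and of Cyp2b9 and Cyp2b13, differed in level. The 250 bases before the transcript start that the RefSeq promoter table uses are on GRCm38.p6, plus strand, at chr7:26306942-26307191 for Cyp2a4, chr7:26835089-26835338 for Cyp2a5, chr7:26173159-26173408 for Cyp2b9 and chr7:26061245-26061494 for Cyp2b13. In Cyp2b9 and Cyp2b13 that start lies inside the gene span given above, which begins further upstream. Capitals mark the bases that differ within a pair.
Cyp2a4 promoter: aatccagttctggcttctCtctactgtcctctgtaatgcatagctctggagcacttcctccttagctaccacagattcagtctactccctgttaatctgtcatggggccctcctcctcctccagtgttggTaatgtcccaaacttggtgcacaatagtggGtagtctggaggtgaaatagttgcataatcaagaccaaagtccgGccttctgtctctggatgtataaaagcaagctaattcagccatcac
Cyp2a5 promoter: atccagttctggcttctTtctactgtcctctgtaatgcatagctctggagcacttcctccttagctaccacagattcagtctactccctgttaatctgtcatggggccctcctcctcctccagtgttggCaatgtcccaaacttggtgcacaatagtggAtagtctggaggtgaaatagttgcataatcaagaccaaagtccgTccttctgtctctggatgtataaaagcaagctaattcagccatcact
Cyp2b9 promoter: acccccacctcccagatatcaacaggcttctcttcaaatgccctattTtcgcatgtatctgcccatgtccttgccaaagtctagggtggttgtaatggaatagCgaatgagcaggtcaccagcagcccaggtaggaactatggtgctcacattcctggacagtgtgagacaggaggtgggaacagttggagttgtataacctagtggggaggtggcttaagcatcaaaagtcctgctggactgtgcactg
Cyp2b13 promoter: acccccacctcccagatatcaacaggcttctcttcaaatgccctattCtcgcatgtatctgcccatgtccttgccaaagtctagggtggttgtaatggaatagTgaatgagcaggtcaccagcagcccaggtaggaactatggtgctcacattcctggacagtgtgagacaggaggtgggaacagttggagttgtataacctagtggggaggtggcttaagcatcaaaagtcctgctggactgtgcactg
The first pair matched at 245 of 249 aligned bases and the second at 248 of 250. The nuclear receptor hexamer AGGTCA, read on both strands, stood 138 to 133 bases before the promoter table's start in Cyp2b9 and in Cyp2b13. It occurred in 6 of 28 promoters of tested members, or 21.4%, against 14% of all 32851 promoters. The STAT5 motif TTCNNNGAA occurred in 0 of 28, against 7.02% of all.

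The rest of the chromosome 7 cluster changed less. Cyp2a12, a testosterone hydroxylase, had lowest, median and highest values of 129, 144 and 149 RPKM at 2 g/L against 161, 175 and 188 RPKM in control. The groups did not overlap, and the log2 fold was −0.29 (SE 0.06, adjusted p = 0.000293) at 2 g/L and −0.29 (SE 0.06, adjusted p = 0.000252) at 3.5 g/L. Cyp2f2, which activates naphthalene and is also a marker of lung club cells, had medians of 302, 291, 267 and 251 RPKM at 0, 1, 2 and 3.5 g/L and folds of −0.20 (SE 0.08, adjusted p = 0.0306) at 2 g/L and −0.27 (SE 0.08, adjusted p = 0.00470) at 3.5 g/L.

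Cyp2b10, the usual indicator gene for CAR in mouse liver, had lowest, median and highest values of 0.0564, 0.584 and 1.04 RPKM in control, 0.0393, 0.478 and 1.03 at 1 g/L, 0.0755, 0.367 and 0.607 at 2 g/L and 0.128, 0.275 and 1.15 at 3.5 g/L. All 4 doses overlapped, and the log2 fold was −0.21 (SE 0.17, adjusted p = 0.330) at 2 g/L and −0.18 (SE 0.17, adjusted p = 0.383) at 3.5 g/L. A single library at 3.5 g/L, number 97, reached 1.15 RPKM.

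The Cyp2c cluster of chromosome 19, chr19:39006940-40187286, moved mostly the other way. Of its 12 tested members 10 fell and 1 rose at 2 g/L, beside 10.0% fallen and 41.9% risen of all genes. At 3.5 g/L 9 fell and 2 rose, beside 12.9% fallen and 38.6% risen. The largest falls were in the neighbours Cyp2c40 and Cyp2c69, both higher in female than in male liver, and the rises were in the neighbours Cyp2c38 and Cyp2c39. Cyp2c44, a single arachidonic acid epoxygenase gene listed as Cyp2c23 in RefSeq and apart from the cluster on the same chromosome, rose slightly.

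Cyp2c40 lies at chr19:39767073-39812814 and Cyp2c69 at chr19:39842660-39886769, both on the minus strand. A run of 120 coding bases of each, again from GENCODE M21 on GRCm38, shows how little separates them, with capitals at the bases that differ. Both are read from the start codon of Cyp2c69, and the annotated start codon of Cyp2c40 lies further upstream.
Cyp2c40 coding start: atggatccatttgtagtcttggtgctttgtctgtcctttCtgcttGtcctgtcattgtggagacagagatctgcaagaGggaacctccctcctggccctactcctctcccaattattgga
Cyp2c69 coding start: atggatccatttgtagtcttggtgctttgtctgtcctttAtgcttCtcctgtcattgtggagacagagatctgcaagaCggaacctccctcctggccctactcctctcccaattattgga
They differed at 3 of 120 bases. Of the 50-base windows of Cyp2c40, 72.1% occurred in another Cyp2 transcript, and the shares were 54.8% for Cyp2c69, 52.8% for Cyp2c67 and 43.3% for Cyp2c68. The low values of Cyp2c40 and Cyp2c69 were not whole reads, so the division of reads among these 4 genes is uncertain. Their promoters matched at 217 of 220 aligned bases.

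Cyp2c40, an arachidonic acid hydroxylase, had lowest, median and highest values of 17.0, 32.6 and 131 RPKM in control, 5.39, 35.1 and 73.2 at 1 g/L, 0.532, 6.44 and 27.8 at 2 g/L and 1.66, 2.72 and 24.3 at 3.5 g/L. Libraries of 1 dose differed widely, and the higher doses overlapped control through library 78 at 2 g/L and library 99 at 3.5 g/L. The log2 fold was −2.66 (SE 0.70, adjusted p = 0.00286) at 2 g/L and −2.86 (SE 0.70, adjusted p = 0.00144) at 3.5 g/L. Without library 78 the value at 2 g/L was −3.11 (SE 0.68, adjusted p = 0.000611), and without library 99 the value at 3.5 g/L was −3.32 (SE 0.68, adjusted p = 0.000341).

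Cyp2c69 was lower throughout and followed the same libraries. The lowest, median and highest values were 1.79, 4.82 and 22.8 RPKM in control, 0.598, 5.64 and 12.7 at 1 g/L, 0, 0.643 and 4.58 at 2 g/L and 0.188, 0.330 and 3.53 at 3.5 g/L. Against control the log2 fold was −1.85 (SE 0.53, adjusted p = 0.00535) at 2 g/L and −2.05 (SE 0.53, adjusted p = 0.00232) at 3.5 g/L, or −2.34 (SE 0.53, adjusted p = 0.000857) without library 99. The ratio of Cyp2c40 to Cyp2c69 had a median of 6.35 in control, 6.95 at 1 g/L, 6.07 at 2 g/L, over the 5 libraries with Cyp2c69 above 0, and 6.78 at 3.5 g/L. With the tag as a term, 2 g/L against control gave −3.61 (SE 1.2, adjusted p = 0.0541) for Cyp2c40 and −2.81 (SE 0.94, adjusted p = 0.0561) for Cyp2c69, which ended both calls, while 2 against 1 g/L within tag L2 gave −2.90 (SE 0.78, adjusted p = 0.0442) and −2.14 (SE 0.49, adjusted p = 0.0269).

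Cyp2c67 and Cyp2c68 are the next copies in the cluster and were more abundant. Cyp2c67 had lowest, median and highest values of 97.9, 144 and 176 RPKM in control, 115, 133 and 153 at 1 g/L, 46.5, 70.6 and 83.6 at 2 g/L and 40.3, 60.3 and 93.9 at 3.5 g/L. Both higher doses lay wholly below control. Its log2 fold was −1.02 (SE 0.19, adjusted p = 9.40e-05) at 2 g/L and −1.23 (SE 0.19, adjusted p = 7.83e-06) at 3.5 g/L, and the call at 2 g/L held with the tag as a term at −0.92 (SE 0.26, adjusted p = 0.0244). Cyp2c68 had medians of 92.2, 85.3, 44.3 and 36.9 RPKM at 0, 1, 2 and 3.5 g/L, with folds of −1.13 at 2 g/L and −1.06 at 3.5 g/L. Its call at 2 g/L ended with the tag as a term, at −1.40 (SE 0.46, adjusted p = 0.0529).

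Cyp2c70 makes muricholic acids, the bile acids that set rodents apart, and shares no 50-base window with another member. Its lowest, median and highest values were 257, 346 and 416 RPKM in control, 284, 381 and 512 at 1 g/L, 136, 202 and 339.7 at 2 g/L and 119.8, 164 and 217 at 3.5 g/L. Only the 3.5 g/L libraries lay wholly below control. This gave a log2 fold of −0.71 (SE 0.19, adjusted p = 0.00376) at 2 g/L and −1.01 (SE 0.19, adjusted p = 0.000132) at 3.5 g/L.

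Cyp2c29, an epoxygenase that CAR activators raise, fell at 2 g/L only among the doses tested against control. The lowest, median and highest values were 219.9, 368 and 517 RPKM in control, 236, 308 and 342 at 1 g/L, 140.2, 182 and 243 at 2 g/L and 197, 298 and 351 at 3.5 g/L. The log2 fold was −0.97 (SE 0.18, adjusted p = 8.44e-05) at 2 g/L and −0.36 (SE 0.18, adjusted p = 0.0934) at 3.5 g/L, although with median-ratio scaling the value at 3.5 g/L passed the test at −0.51 (SE 0.17, adjusted p = 0.0201). Between 3.5 and 2 g/L it was higher by 0.62 (SE 0.18, adjusted p = 0.0265).

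The arachidonic acid metabolising genes Cyp2c37, Cyp2c50 and Cyp2c54, which lie side by side and share 25.7% to 30.7% of their windows with other members, fell together. Cyp2c37 had medians of 23.5, 23.0, 10.5 and 13.1 RPKM at 0, 1, 2 and 3.5 g/L, and a fold of −1.17 (SE 0.25, adjusted p = 0.000406) at 2 g/L. Medians of Cyp2c50 over the same doses were 85.0, 79.0, 41.3 and 51.7 RPKM, with a fold of −1.03 at 2 g/L. Those of Cyp2c54 were 51.6, 47.8, 23.2 and 32 RPKM, with a fold of −1.05. At 3.5 g/L the folds were −0.86, −0.75 and −0.66 in that order, all past the test. Library 78 was the highest of its dose in all 3 genes.

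Cyp2c55, an arachidonic acid hydroxylase at the other end of the cluster, was near the filter. Its lowest, median and highest values were 0.302, 0.747 and 1.25 RPKM at 2 g/L against 0.656, 2.12 and 3.46 RPKM in control. Against control the log2 fold was −0.80 (SE 0.18, adjusted p = 0.000771) at 2 g/L and −0.52 (SE 0.18, adjusted p = 0.0197) at 3.5 g/L. Its values were whole reads throughout, from 17 to 194.

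**Figure D3:**
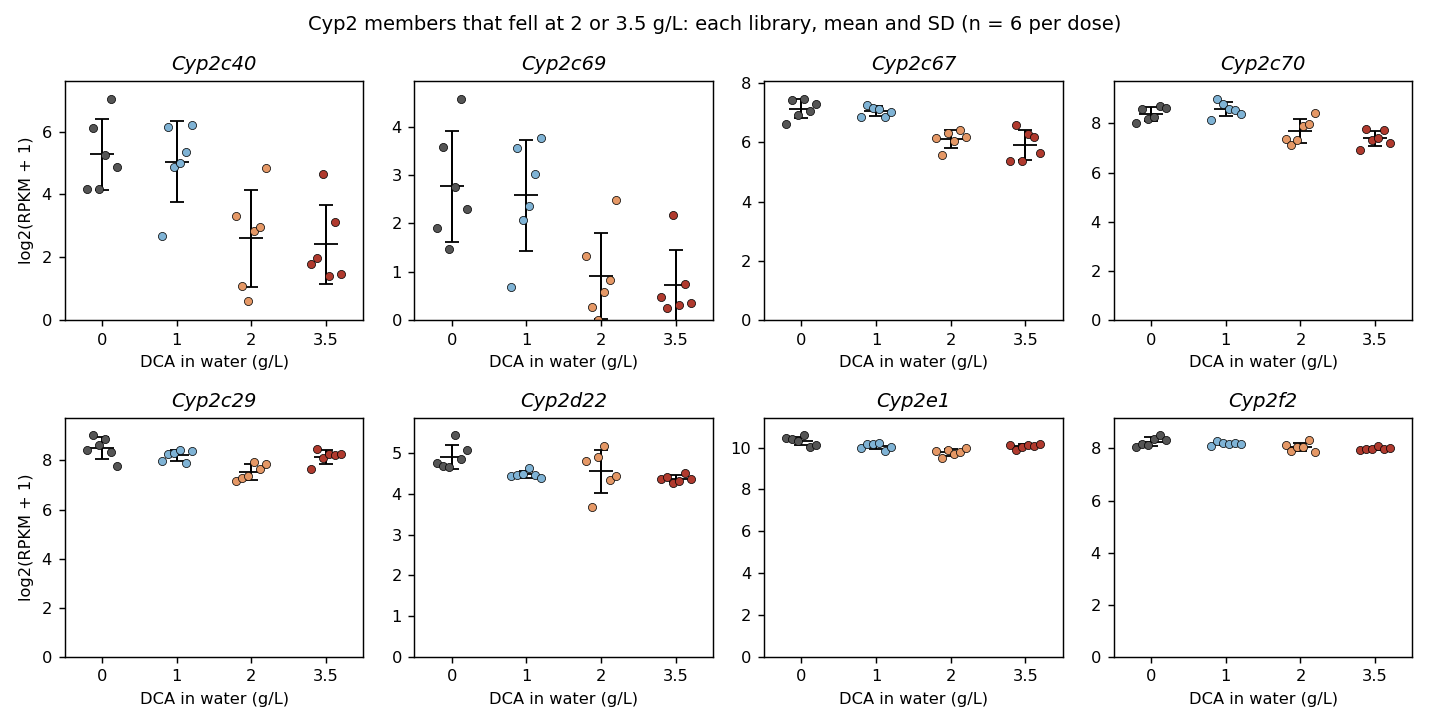
Expression as log2(RPKM + 1) against DCA dose for 8 of the Cyp2 members that fell at 2 or 3.5 g/L, where points are libraries and bars are the mean and SD of 6. Cyp2c40 and Cyp2c69 spread widely within each dose, while Cyp2c67 lies below control in all libraries at 2 and 3.5 g/L and Cyp2e1 is lowest at 2 g/L.

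Cyp2c38 and Cyp2c39 were the exceptions in the cluster. Cyp2c39, a retinoic acid hydroxylase, is annotated at chr19:39347346-39569568 on the plus strand, and Cyp2c38 at chr19:39389556-39463103 lies within that span on the minus strand. The sources used here do not give whether counting used the strand, so reads of the overlapping span cannot be assigned with certainty.

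Cyp2c38 had lowest, median and highest values of 0.596, 1.12 and 2.21 RPKM in control, 0.417, 1.33 and 2.75 at 1 g/L, 1.70, 3.78 and 4.89 at 2 g/L and 5.2, 8.62 and 12.2 at 3.5 g/L. The 3.5 g/L libraries lay above all others. Its log2 fold was 1.00 (SE 0.22, adjusted p = 0.000629) at 2 g/L and 2.14 (SE 0.22, adjusted p = 2.98e-08) at 3.5 g/L.

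Cyp2c39 had values of 3.19, 3.61 and 6.62 RPKM in control, 1.81, 3.09 and 6.62 at 1 g/L, 4.14, 7.09 and 21.5 at 2 g/L and 9.63, 16 and 52.9 at 3.5 g/L. It passed the test at 3.5 g/L, where all libraries lay above control, with 1.91 (SE 0.34, adjusted p = 5.16e-05), and missed it at 2 g/L with 0.72 (SE 0.34, adjusted p = 0.0759). Cyp2c44 had medians of 27.2, 33.8, 37.6 and 36.1 RPKM at 0, 1, 2 and 3.5 g/L, with a log2 fold of 0.51 (SE 0.15, adjusted p = 0.00685) at 2 g/L that became 0.34 (SE 0.14, adjusted p = 0.0590) with median-ratio scaling.

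**Figure D4:**
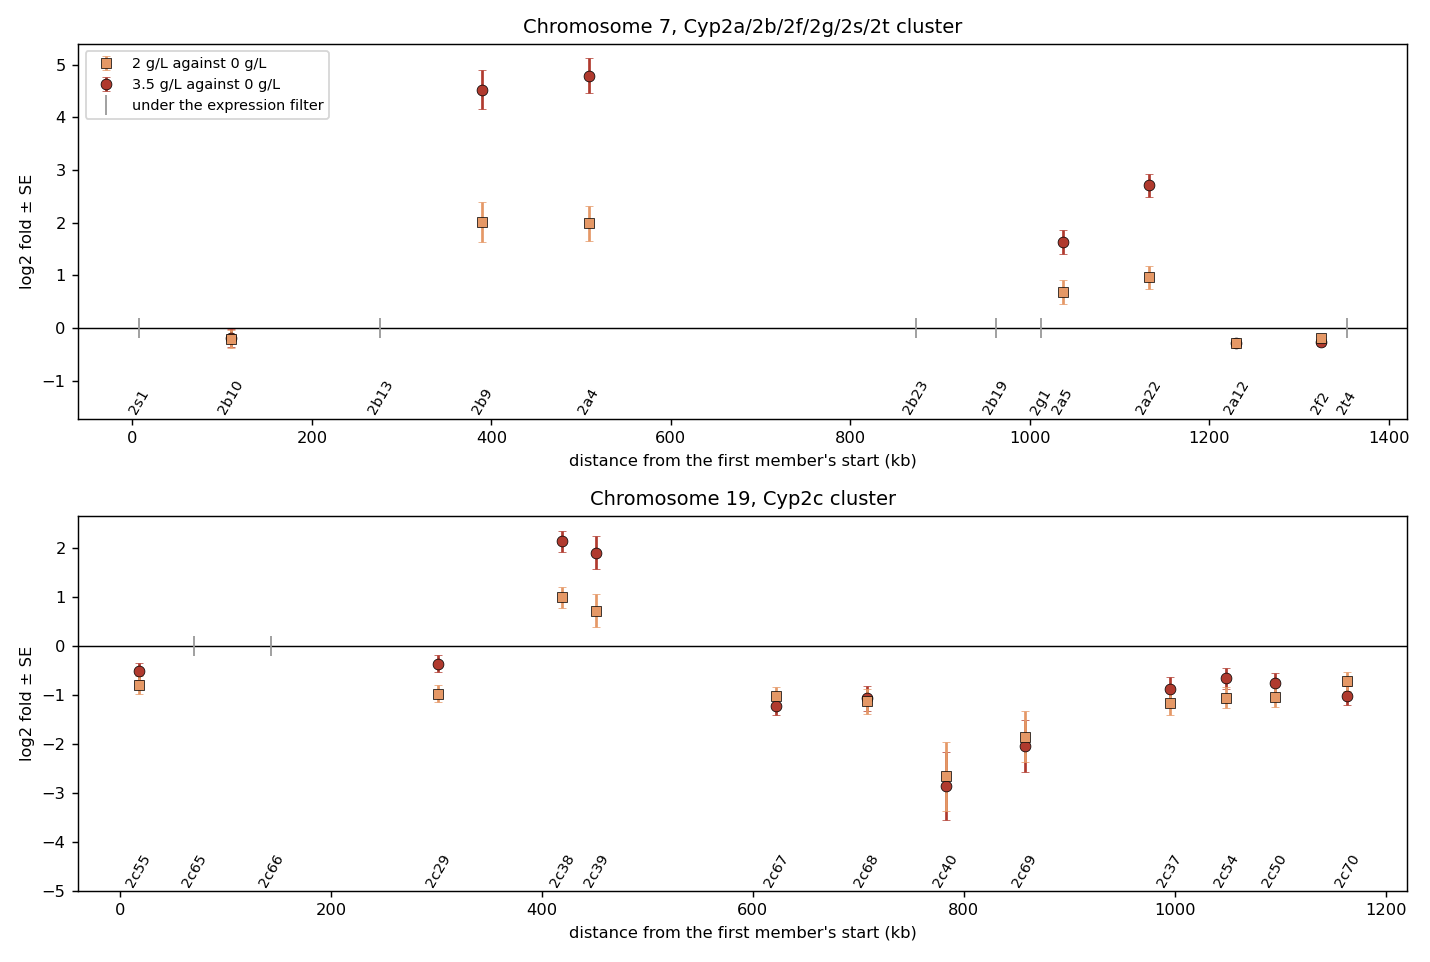
Log2 fold with its SE at 2 g/L (squares) and 3.5 g/L (circles) against 0 g/L for the Cyp2 members of the chromosome 7 and chromosome 19 clusters, placed by distance in kb from the first member's start, where grey ticks are members under the expression filter. On chromosome 7 the rises lie in Cyp2b9, Cyp2a4, Cyp2a5 and Cyp2a22, and on chromosome 19 Cyp2c38 and Cyp2c39 lie above 0 among falling neighbours.

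The most abundant member, Cyp2e1, was lowest at the middle dose. It oxidises ethanol, acetone and acetaminophen and is expressed around the central vein. The lowest, median and highest values were 1049.9, 1316 and 1531 RPKM in control, 909.5, 1109.7 and 1188 at 1 g/L, 723, 895 and 995 at 2 g/L and 959.6, 1091 and 1141 at 3.5 g/L. The 2 g/L libraries lay wholly below control. This gave a log2 fold of −0.54 (SE 0.10, adjusted p = 6.19e-05) at 2 g/L and −0.26 (SE 0.10, adjusted p = 0.0275) at 3.5 g/L, and the call at 3.5 g/L ended with quantile normalization at −0.02 (SE 0.10, adjusted p = 0.921). With the tag as a term the call at 2 g/L ended, at −0.45 (SE 0.18, adjusted p = 0.111). Its 3.5 against 2 g/L difference was 0.29 (SE 0.10, adjusted p = 0.0572), which passed the test with median-ratio scaling at 0.31 (SE 0.09, adjusted p = 0.0323). Cyp2e1 held a median of 33.6%, 30.7%, 32.4% and 33.9% of the family's summed RPKM at the 4 doses from 0 to 3.5 g/L.

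After Cyp2e1 the control medians ran Cyp2c29 at 368, Cyp2c70 at 346, Cyp2f2 at 302 and Cyp2d9 at 289 RPKM, and the ranges of neighbours in that order overlapped. Cyp2a4 and Cyp2b9 ranked 32 and 29 of 48 in control. The family's summed RPKM had medians of 3795, 3637, 2811 and 3206 at 0, 1, 2 and 3.5 g/L. The 15 Cyp2c genes summed to medians of 1195, 1199, 632 and 741 RPKM over the same doses, and the 5 Cyp2b genes to 1.23, 0.688, 6.27 and 31.7 RPKM.

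The Cyp2d genes of chromosome 15, chr15:82370527-82794452, had log2 folds from −0.57 to −0.07 at 2 g/L and from −0.72 to 0.05 at 3.5 g/L. Of 6 tested, 3 fell at 2 g/L, beside 10.0% of all genes, and 3 fell at 3.5 g/L, beside 12.9%. With median-ratio scaling Cyp2d10, Cyp2d22 and Cyp2d26 fell at 2 g/L as well. Cyp2d9, a testosterone hydroxylase higher in male liver, had lowest, median and highest values of 182, 223 and 269 RPKM at 2 g/L against 241, 289 and 375 RPKM in control. Its fold was −0.37 (SE 0.14, adjusted p = 0.0246) at 2 g/L and −0.17 (SE 0.14, adjusted p = 0.317) at 3.5 g/L, and the value at 3.5 g/L was −0.02 (SE 0.10, adjusted p = 0.908) without library 99.

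Cyp2d22, the mouse gene most like human CYP2D6, had lowest, median and highest values of 24.4, 26.9 and 42.1 RPKM in control, 20.0, 21.0 and 23.9 at 1 g/L, 11.8, 23.8 and 34.8 at 2 g/L and 18.2, 19.4 and 21.9 at 3.5 g/L. It lay wholly below control at 1 and at 3.5 g/L but not at 2 g/L, where libraries ranged most. The log2 fold was −0.43 (SE 0.16, adjusted p = 0.0887), −0.35 (SE 0.16, adjusted p = 0.0750) and −0.54 (SE 0.16, adjusted p = 0.00821) at the 3 doses in rising order. With median-ratio or quantile scaling Cyp2d22 passed the test at 2 g/L.

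Cyp2d13, annotated in RefSeq as a transcribed pseudogene, fell by 0.72 (SE 0.18, adjusted p = 0.00188) on the log2 scale at 3.5 g/L, with medians of 38.6, 30.4, 29.1 and 23.6 RPKM at 0, 1, 2 and 3.5 g/L. Cyp2d40 had medians of 18.3, 20.6, 12.6 and 11.9 RPKM at 0, 1, 2 and 3.5 g/L, and a fold of −0.52 (SE 0.15, adjusted p = 0.00491) at 3.5 g/L. Over the same doses the medians of Cyp2d10 were 182, 176, 176 and 182 RPKM and those of Cyp2d26 were 160.2, 170.0, 142 and 159 RPKM. Cyp2d10 and Cyp2d26 did not pass the test at any dose against control, with folds of −0.07 and −0.15 at 2 g/L. With median-ratio scaling both passed at 2 g/L, at −0.24 (SE 0.06, adjusted p = 0.00129) and −0.32 (SE 0.07, adjusted p = 0.000975).

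Of the Cyp2j genes of chromosome 4, chr4:96042660-96664171, 3 of 7 were tested. Cyp2j5, an arachidonic acid epoxygenase of liver and kidney, had lowest, median and highest values of 92.1, 97.5 and 103 RPKM at 3.5 g/L against 74.9, 92.2 and 102 RPKM in control, and a fold of 0.10 (SE 0.07, adjusted p = 0.241). At 1 and 2 g/L its medians were 92.7 and 104 RPKM. Cyp2j6 had medians of 10.1, 10.4, 9.63 and 8.99 RPKM at 0, 1, 2 and 3.5 g/L, and a fold of −0.17 (SE 0.09, adjusted p = 0.118) at 3.5 g/L. Cyp2j6 passed the test at 3.5 g/L with median-ratio or quantile scaling, and fell. Cyp2j9 fell at 2 g/L, with medians of 2.16, 1.71, 1.2 and 1.92 RPKM at 0, 1, 2 and 3.5 g/L and a fold of −0.48 (SE 0.10, adjusted p = 0.000533), and at 3.5 g/L its fold was −0.16 (SE 0.10, adjusted p = 0.207). With median-ratio scaling Cyp2j9 fell at 3.5 g/L too.

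Cyp2r1 and Cyp2u1 stand alone in the genome. Cyp2r1, which makes the circulating form of vitamin D, had medians of 2.58, 3.18, 3.29 and 2.51 RPKM at 0, 1, 2 and 3.5 g/L and a fold of 0.23 (SE 0.09, adjusted p = 0.0464) at 2 g/L, which became 0.10 (SE 0.09, adjusted p = 0.395) with median-ratio scaling. Cyp2u1, a fatty acid hydroxylase, had medians of 14.8, 16.3, 12.6 and 14.1 RPKM at 0, 1, 2 and 3.5 g/L and a fold of −0.22 (SE 0.13, adjusted p = 0.163) at 2 g/L. With median-ratio scaling Cyp2u1 passed the test at 2 g/L, at −0.38 (SE 0.13, adjusted p = 0.0235).

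The 16 untested members did not reach 0.5 RPKM in any library. The highest of them were Cyp2b13 at 0.330, Cyp2d11 at 0.241, Cyp2s1 at 0.187, Cyp2g1 at 0.184, Cyp2d12 at 0.150 and Cyp2j8 at 0.142 RPKM. Cyp2g1 is best known from olfactory tissue, and Cyp2s1 from epithelia outside the liver. Cyp2t4, Cyp2d34, Cyp2c66, Cyp2c65, Cyp2b19, Cyp2w1, Cyp2j12, Cyp2j11 and Cyp2j13 stayed under 0.08 RPKM, and Cyp2b23 was listed at 0 in all 24 libraries. Of the lines left out, Cyp2c53-ps had medians of 0.0932 RPKM at 2 g/L and 0.744 RPKM in control and a fold of −0.68 (SE 0.13, adjusted p = 0.000132). Cyp2d37-ps had 12.9 and 19.1 RPKM in the same groups and a fold of −0.53 (SE 0.15, adjusted p = 0.00643).

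The doses were also compared step by step. At 2 against 1 g/L 5 members rose and 14 fell, beside 28.4% of all genes changed, 22.7% risen and 5.63% fallen. Of these calls, those of Cyp2c39, Cyp2c69, Cyp2d26 and Cyp2e1 each ended without any 1 of 2, 3, 6 and 4 libraries in that order. At 3.5 against 2 g/L 8 rose and 1 fell, beside 10.3% changed, 4.79% risen and 5.54% fallen. The 8 were Cyp2a4, Cyp2a5, Cyp2a22, Cyp2b9, Cyp2c29, Cyp2c38, Cyp2c39 and Cyp2j9, and the 1 was Cyp2r1. Leaving out any 1 of 18 libraries ended the call of Cyp2j9, any 1 of 7 that of Cyp2c29, any 1 of 7 that of Cyp2r1 and any 1 of 4 that of Cyp2c39. Cyp2a4 gained 2.81 (SE 0.32, adjusted p = 8.82e-06) on the log2 scale in this step and Cyp2b9 2.52 (SE 0.38, adjusted p = 0.000207), while Cyp2c40 differed by −0.20 (SE 0.70, adjusted p = 0.885). Without library 99 these were 2.55 (SE 0.30, adjusted p = 1.65e-05), 2.17 (SE 0.32, adjusted p = 0.000308) and −0.65 (SE 0.68, adjusted p = 0.591), and Cyp2d9 was then called as well, at 0.36 (SE 0.10, adjusted p = 0.0319). The comparisons of 2 and 3.5 g/L with control share the same control libraries, so their calls are not independent.

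Members known to be higher in female liver did not move as 1 group. Of the 5 listed, Cyp2a4 and Cyp2b9 rose and Cyp2c40 and Cyp2c69 fell at both higher doses, and Cyp2b13 was not tested. The list was drawn up with earlier results of these data known. Of the other female-biased genes, 2 of 7 were tested, and Cyp3a44 fell by 0.94 (SE 0.19, adjusted p = 0.000199) on the log2 scale at 2 g/L. Of 8 male-biased genes outside the family, 1 rose and 3 fell at 2 g/L, and 1 rose and 5 fell at 3.5 g/L. Over all tested genes 41.9% rose and 10.0% fell at 2 g/L, and 38.6% rose and 12.9% fell at 3.5 g/L. The male-biased genes called at 2 g/L were Mup21 at −2.05, Cyp4a12b at 1.67, Elovl3 at −1.66 and the complement gene C8a at −0.86. Growth hormone receptor (Ghr) fell by 0.34 (SE 0.09, adjusted p = 0.00232) at 2 g/L and 0.41 (SE 0.09, adjusted p = 0.000323) at 3.5 g/L.

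Of 18 tested regulators of P450 genes, 4 rose and 2 fell at 2 g/L and 6 rose and 2 fell at 3.5 g/L. The shares over all genes were 41.9% risen and 10.0% fallen at 2 g/L, and 38.6% and 12.9% at 3.5 g/L. The falls were near those shares. With median-ratio scaling 3 rose and 4 fell at 2 g/L. Nr1i3, the receptor CAR, had lowest, median and highest values of 19.6, 23.5 and 25.6 RPKM at 3.5 g/L against 11.2, 16.2 and 18.1 RPKM in control, with no overlap and a log2 fold of 0.55 (SE 0.12, adjusted p = 0.000708). Nr1i2, the receptor PXR, had folds of 0.30 (SE 0.08, adjusted p = 0.00259) at 2 g/L and 0.53 (SE 0.08, adjusted p = 6.22e-06) at 3.5 g/L. The value at 2 g/L was not called with median-ratio or quantile scaling.

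Nfe2l2, the oxidative stress factor NRF2, which is known to raise Cyp2a5 in mouse liver, had folds of 1.06 (SE 0.12, adjusted p = 2.45e-07) at 2 g/L and 1.49 (SE 0.12, adjusted p = 6.39e-10) at 3.5 g/L. Nr1h4, the bile acid receptor FXR, had 0.61 and 0.96, and its target Nr0b2 had −1.25 (SE 0.20, adjusted p = 2.41e-05) at 2 g/L and −0.24 (SE 0.20, adjusted p = 0.336) at 3.5 g/L. Hnf4a was called at 3.5 g/L only, at 0.43, and Esr1 likewise at −0.56. Arnt, the partner of the Ah receptor, had 0.31 and 0.43. Of the others, Ahr, Foxa1, Foxa2, Foxa3, Cebpa, Cebpb, Nr3c1 and Bcl6 passed at neither dose, with folds between −0.62 and 0.30.

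Of 10 tested genes of electron supply and of haem synthesis and breakdown, 7 rose at each of 2 and 3.5 g/L. Over all genes 41.9% and 38.6% rose. The cytochrome b5 genes Cyb5a and Cyb5b had folds of 0.23 and 0.47 at 2 g/L, the reductase Cyb5r3 had 0.40, and the haem synthesis gene Cpox had 0.85 (SE 0.12, adjusted p = 2.71e-06). Blvrb had 0.41 and Fech 0.11, which turned to a value below 0 with median-ratio and quantile scaling. Alas1, the first step of haem synthesis, had −0.17 (SE 0.50, adjusted p = 0.807), and Alad and Hmox1 did not pass, at 0.30 and 0.16. With median-ratio scaling 5 of 10 rose at 2 g/L and 4 at 3.5 g/L.

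Of 8 other known CAR targets tested, 6 rose and 1 fell at 2 g/L, and 7 rose and 1 fell at 3.5 g/L. The shares over all genes were 41.9% risen and 10.0% fallen at 2 g/L, and 38.6% and 12.9% at 3.5 g/L. With the tag as a term 3 rose and 1 fell at 2 g/L. The largest folds at 2 g/L were in the epoxide hydrolase Ephx1 at 1.74, the glutathione transferase Gsta2 at 1.70, the esterase Ces2a at −1.39 and the transporter Abcc3 at 1.25. Of the 30 other tested Cyp genes, 12 rose and 8 fell at 2 g/L, where the rises are near the share over all genes, and 5 of 6 tested Cyp4a genes rose at both doses.

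Markers of liver zones and of other cell types were counted against the same shares, 41.9% risen and 10.0% fallen at 2 g/L and 38.6% and 12.9% at 3.5 g/L. Of 9 pericentral genes, 2 rose and 5 fell at 2 g/L, with Cyp7a1 at 1.5, Aldh1a1 at 1.22, Cyp1a2 at −1.01 and Lect2 at −0.84. Of 8 periportal genes, 1 rose and 3 fell, with Hsd17b13 at 0.64, Cps1 at −0.63, Cdh1 at −0.27 and Asl at −0.26. With median-ratio scaling 6 of the 8 periportal genes fell at 2 g/L, and with quantile normalization 5. Of the 6 hepatocyte markers, 4 fell at 2 g/L, and 5 fell and Hnf4a rose at 3.5 g/L. Alb had a fold of −0.53 at 2 g/L. Quantile normalization gave 0.0, but it fixes that value for a gene of the same rank in every library. That 0.0 therefore cannot decide whether the fall depends on scaling. The 6 markers' summed RPKM ranged from 20793 to 26493 at 3.5 g/L and from 27418 to 34198 in control.

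Of the Kupffer cell markers 4 of 5 fell at 3.5 g/L, with sums of 30.7 to 45.1 RPKM at 3.5 g/L and 48.9 to 68.3 RPKM in control. Of 3 blood genes 3 fell at 2 g/L, and 2 fell at 3.5 g/L. Their sums were 142 to 308 RPKM at 2 g/L, 172 to 345 RPKM at 3.5 g/L and 184 to 570.3 RPKM in control. Of 5 endothelial markers 1 fell at 3.5 g/L, whereas 4 fell with median-ratio scaling, which also called 3 at 2 g/L. Of 5 stellate cell markers Lrat rose at both doses, but with median-ratio or quantile scaling Lrat was not called and 2 other markers fell. The 1 tested bile duct marker did not pass. No marker of these lists was at 0 in all libraries of a dose. The part of these cell types in the Cyp2 results was not tested.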

How the data were processed

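Liver RNA was sequenced from 24 libraries, 6 at each dose. The deposited values are RPKM, which the authors computed per gene. CASAVA, STAR 2.4 and Partek, and the mouse build mm10, are named in the submitters' processing notes. The gene annotation, the use of strand and the handling of reads that fit several copies are not given in the sources used here. In the deposited table a zero stands as 0.0001 RPKM, and such values were read as 0. The table used here stops within the line of Olfr272, so genes later in its order, such as Por, were not analysed here. Another 13 lines were dropped since a date stood in place of their symbol, and 0 sample columns were left unmapped.

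Genes with 0.5 RPKM in at least 6 libraries (6540) were tested on log2(RPKM + 1) with limma 3.58.1 in R 4.3.3, using group means over all 24 libraries, a trended prior, two-sided tests and Benjamini-Hochberg adjustment over all tested genes. The script was tested on simulated data. Depth was estimated from the steps of low RPKM values of 232 genes, and the counts themselves were not used.

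Every Cyp2 symbol not ending in -ps was taken. Of genes outside the family, the listed regulators and electron and haem genes were named, with at most the 4 largest folds called at 2 g/L of each other list. Some genes of these lists are counted but not reported here by name. The members and lists were chosen with earlier results of these data known. Positions and promoters came from RefSeq (GRCm38.p6), and coding bases from GENCODE M21. Doses share no replicate numbers, so nothing was paired. Alternatives covered the pseudocount, filter, scaling, spread estimate, title tag and leaving out each library.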

Additional observations from a re-analysis of the deposited data

Results flagged for a closer look

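Single libraries lay far from the other 5 of their dose in 16 of 128 checks of a member at a dose, or 12.5%, by Dixon's criterion. About 1 in 20 would be flagged if values were normal and the checks independent. RPKM values need not be normal and similar copies can share reads, so 12.5% cannot be read as an excess. No cause was tested.

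Library 99 at 3.5 g/L appeared 5 times. It had 92.8 RPKM of Cyp2a4, where the others ranged from 22.9 to 45.3, and 129.5 RPKM of Cyp2b9, where they ranged from 15.8 to 50.8. It had 24.3 RPKM of Cyp2c40 against 1.66 to 7.74 in the others, 3.53 RPKM of Cyp2c69 against 0.188 to 0.676, and the lowest Cyp2d9, 155 RPKM against 269 to 335.

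Library 54 at 1 g/L was high in 3 genes, with 1.44 RPKM of Cyp2a4 against 0.0782 to 0.331 in the others, 0.897 RPKM of Cyp2b9 against 0.125 to 0.403 and 6.62 RPKM of Cyp2c39 against 1.81 to 3.47. Library 75 at 2 g/L had 87.5 RPKM of Cyp2a5 against 27.1 to 43.8 and 21.5 RPKM of Cyp2c39 against 4.14 to 8.82. Library 78 at 2 g/L had 27.8 RPKM of Cyp2c40 against 0.532 to 8.94 and 4.58 RPKM of Cyp2c69 against 0 to 1.49.

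The others were single genes. Library 98 at 3.5 g/L had 52.9 RPKM of Cyp2c39 against 9.63 to 24.5, and library 97 had 1.15 RPKM of Cyp2b10 against 0.128 to 0.364. Library 74 at 2 g/L had the lowest Cyp2d10, 141 RPKM against 173 to 192, and library 52 at 1 g/L the highest Cyp2d22, 23.9 RPKM against 20.0 to 21.3.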

How the results depend on the processing

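Of 5115 log2 folds of single members under the alternatives, 4932 kept their call or stayed uncalled, 130 lost their call and 52 gained one. Signs of folds that stayed uncalled were not compared. For 1 called fold the sign changed, that of Cyp2r1 at 2 g/L against control. It was −0.022 with the title tag as a term and lost its call. Among fits that left out 1 library, the count of members called moved by over 1.5 times without library 7, 8 or 74 at 1 g/L against control. It also did so without library 74 at 3.5 against 2 g/L. Under the other alternatives the count moved as far in these cases. At 1 g/L against control it was 1 with median-ratio scaling. At 2 g/L against control it was 5 with the tag as a term. At 2 against 1 g/L it was 12 with the tag as a term and 9 within tag L2. At 3.5 against 2 g/L it was 5 with no filter. The cause was not tested. Leaving out each library in turn gave 0 to 1 members at 1 g/L, 21 to 25 at 2 g/L and 20 to 23 at 3.5 g/L, each against control, 17 to 22 at 2 against 1 g/L and 5 to 12 at 3.5 against 2 g/L. In those fits the calls at 2 g/L against control were lost for Cyp2r1 without any 1 of 12 libraries, Cyp2f2 of 5, Cyp2d9 of 2 and Cyp2a5 without library 75, and at 3.5 g/L for Cyp2e1 without any 1 of 4 and Cyp2c55 of 2. No paired analysis was possible because the doses share no replicate numbers. Values near 0.5 RPKM rest on few reads, which limits the folds of Cyp2a4, Cyp2b9 and Cyp2a22 against control.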
